A study of Mus musculus with 8 samples.

Results

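The Myc, Max and Mxd network was followed through early B lymphopoiesis as 10 genes, *Myc*, *Mycn*, *Max*, *Mxd1*, *Mxd3*, *Mxd4*, *Mxi1*, *Mnt*, *Mlx* and *Mga*. They were chosen by name and found by symbol among the 27179 Entrez Gene identifiers of a count table, and all 10 were present. The 8 libraries of that table hold 4 populations with 2 libraries each, isolated by flow cytometry from bone marrow of mice aged 7 to 10 weeks. Every population was B220+ IgM- IgD- NK1.1- CD11c-, and CD43 and CD24 separated pre-proB cells (CD43+ CD24-) from proB cells (CD43+ CD24+) and preB cells (CD43- CD24+), which are successive stages of B-cell development. The 3 stages came from control mice of genotype *Erg* fl/fl, which have loxP sites in both *Erg* alleles and no Cre. The fourth population, called Erg-deficient here, had the pre-proB phenotype and came from animals of genotype *Rag1Cre* T/+;*Erg* Δ/Δ. There Cre made from the *Rag1* locus deletes the floxed alleles from the common lymphoid progenitor onward, so control and Erg-deficient mice differ in both genes. Cells were taken from 2 mice of each genotype, and the labels do not say whether libraries with the same replicate number came from the same mouse.

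Proteins of this network share a basic helix-loop-helix leucine zipper, and most bind DNA only as a pair with Max. Myc and Mycn with Max recruit histone acetyltransferases to the E-box CACGTG and activate genes of ribosome synthesis, metabolism and cell division, whereas Mxd1, Mxd3, Mxd4, Mxi1 and Mnt with Max recruit the Sin3 and histone deacetylase corepressor to the same letters. Mga also pairs with Max and is part of a Polycomb complex, and Mlx is a second hub that pairs with Mnt, some Mxd proteins and the sugar-responsive factors Mlxip and Mlxipl. In B-cell progenitors Myc is known for driving the growth of proB cells and of large preB cells, and small preB cells leave the cell cycle.

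The E-box itself is present in the promoters of some members. In RefSeq promoter windows of GRCm38.p6, which run from 250 bases before to 50 after a start site, 9 of the 10 members had an entry, and *Myc* had none. Some genes have several windows, and a window's start need not be the outer end of the gene's span given below. The letters CACGTG, which read the same on both strands, were found in the windows of 4 of those 9, against 8.09% of all 27025 genes and 7.15% of all 32851 windows of 300 bases. The stretches of these 4 members, and of 2 genes commonly listed as activated by Myc whose changes are given further on, are shown because they hold the letters that the network's proteins read. They are written 5′ to 3′ on the gene's own strand, with CACGTG in capitals. Distances run from the first base of CACGTG to the start of that window, and the E-box of *Max* runs across this start. The stretches of *Max* and *Mlx* lie inside the gene spans given below, and that of *Mnt* crosses the outer end of its span.
*Max*, the shared partner, with the E-box 3 bases before the start, chr12:76962246-76962271, minus strand
Max: cccggcgcggtgagcccggtCACGTG
*Mxd4*, a repressor, with the E-box 219 bases before the start, chr5:34187904-34187949, minus strand
Mxd4: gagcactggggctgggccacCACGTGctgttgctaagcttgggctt
*Mnt*, a repressor, with the E-box 123 bases before the start, chr11:74830781-74830826, plus strand
Mnt: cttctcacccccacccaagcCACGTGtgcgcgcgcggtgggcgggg
*Mlx*, the second hub, with the E-box 40 bases before the start, chr11:101087230-101087275, plus strand
Mlx: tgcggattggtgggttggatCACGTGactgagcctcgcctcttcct
*Cdk4*, a cell-cycle kinase, with 4 E-boxes in this stretch, chr10:127063358-127063534, plus strand
Cdk4: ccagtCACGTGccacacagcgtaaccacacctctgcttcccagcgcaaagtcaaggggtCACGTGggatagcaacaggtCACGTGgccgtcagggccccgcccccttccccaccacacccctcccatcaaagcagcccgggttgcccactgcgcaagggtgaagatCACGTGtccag
*Ldha*, lactate dehydrogenase A, with 2 E-boxes in this stretch, chr7:46845654-46845803, plus strand
Ldha: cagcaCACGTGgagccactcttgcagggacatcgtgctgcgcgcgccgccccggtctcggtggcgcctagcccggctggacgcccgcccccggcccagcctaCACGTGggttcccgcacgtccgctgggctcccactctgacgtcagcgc
Of the 30 Myc-activated targets described further on, 23 had a window, and 7 of them (30.4%) held CACGTG. The letters CCGGAA, the core that ETS-family factors such as Erg can bind, were looked for on both strands and cannot overlap CACGTG. The letters were found in the windows of 1 of 9 members, *Mlx*, against 16.7% of all genes, and in those of 9 of the 23 targets (39.1%). Among these targets, *Hspd1* and *Hspe1* have overlapping windows on opposite strands, so the same matches were counted for both genes. A match is a description of letters, and binding was not measured in these libraries.

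Library totals ranged from 15565381 to 18457632 counts. Without TMM factors, 3 counts, the limit that a count of 0 allows, came to between 0.163 and 0.193 CPM. CPM are counts scaled to a common library size, and the CPM levels below also carry TMM factors of 0.952 to 1.05. That limit, like other intervals from counts, covers counting error only. *Erg* was at 69.1 and 25.3 CPM in the control pre-proB libraries and at 2.50 and 2.58 CPM in the Erg-deficient ones, as the labels imply. The first control pre-proB library also had more *Pax5*, a B-lineage commitment factor (26.8 against 7.78 CPM), than the second, and results that rest on these libraries are therefore given for each. The pre-proB gate held much RNA of another cell type: 8 genes of plasmacytoid dendritic cells summed to 12665 and 13869 CPM in the control and 14869 and 15403 CPM in the Erg-deficient pre-proB libraries, against 609 to 976 CPM in proB and preB. In bulk RNA, fewer cells of a type and less RNA per cell cannot be told apart, and this holds for every difference below.

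To compare members with each other, levels were expressed per length as FPKM, that is CPM divided by the length of the annotated exons in kilobases. *Max* stood highest in pre-proB (54.1 ± 2.88 FPKM, SD, n = 2), preB (49.3 ± 1.13 FPKM) and Erg-deficient pre-proB cells (56.4 ± 3.49 FPKM). In proB cells *Myc* stood above it, at 70.2 ± 1.98 FPKM against 51.1 ± 1.14 FPKM. *Mlx* (20.2 to 30.2 FPKM on average) and *Mxd3* (14.8 to 35.7 FPKM) came next, and in both kinds of pre-proB cells *Mxd3* and *Mxd4* lay within their spread of each other. *Mycn* was last everywhere, at 0.133 to 0.707 FPKM on average. *Mxd4*, *Mnt*, *Mga*, *Mxd1* and *Mxi1* lay between 5.05 and 16.8 FPKM in all populations. By these means *Myc* moved through the order, from the eighth place in pre-proB, within its spread of *Mxd1* in the seventh, to the first in proB, back to the eighth in preB and to the ninth in Erg-deficient pre-proB cells, while the highest and lowest populations of *Max* were 56.4 and 49.3 FPKM.

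**Figure D1:**
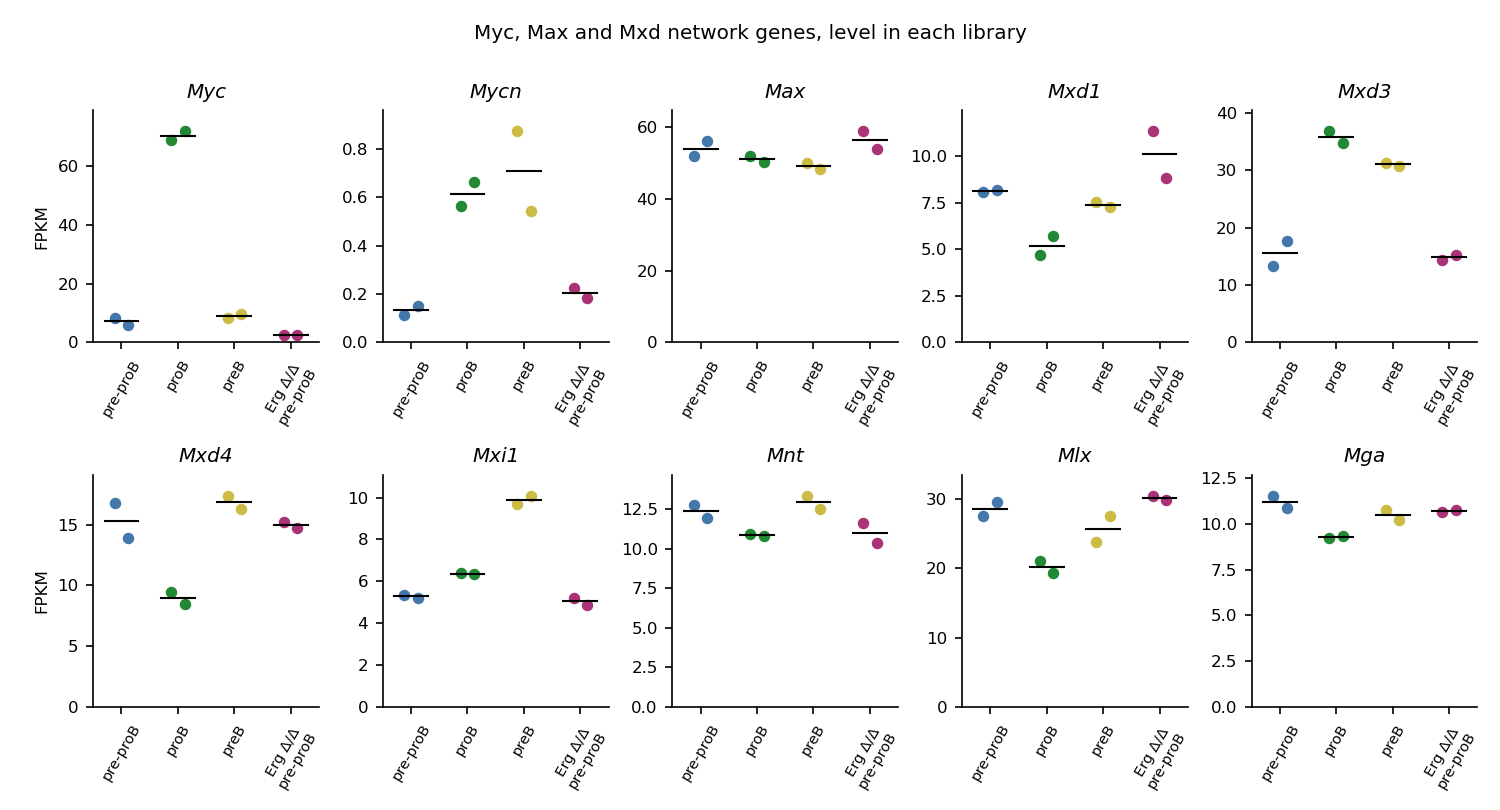
Level of each network gene in FPKM (vertical axis, from 0, scaled separately for each gene) in 2 libraries of each control stage and of Erg-deficient (*Erg* Δ/Δ) pre-proB cells; points are libraries and lines are means. *Myc* reached 68.8 and 71.6 FPKM in proB and stayed under 10 FPKM elsewhere, *Max* hardly moved, and *Mxd4*, *Mlx* and *Mga* had their lowest points in proB.

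*Myc* (chr15:61985341-61990361 in RefSeq, GRCm38.p6) was the member that changed most between stages. It was at 20.5 and 14.4 CPM in pre-proB, 168 and 175 CPM in proB and 20.1 and 23.6 CPM in preB cells. The proB libraries stood far above all others, and the pre-proB and preB libraries overlapped. *Myc* rose 10.1-fold from pre-proB to proB (log2 fold change 3.34, SE 0.136, edgeR quasi-likelihood test, Benjamini-Hochberg adjusted p = 1.08e-07) and fell 7.81-fold from proB to preB (log2 fold change -2.97, SE 0.131, edgeR adjusted p = 2.81e-06). Between the ends of the series it did not pass the test (log2 fold change 0.37, 95% interval 0.02 to 0.71, edgeR adjusted p = 0.0540), and it did pass without the first pre-proB library, without the first preB library or with immunoglobulin genes left out, with adjusted p down to 0.00295 over these alternatives.

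*Mycn* (chr12:12936093-12941836), a paralogue of *Myc* that is best known from neural and embryonic tissue, had few counts: 5 and 7 in pre-proB libraries, 29 and 36 in those of proB, and 42 and 27 in those of preB cells. All proB and preB libraries lay above both pre-proB libraries, and proB and preB overlapped. Both pre-proB libraries, at 0.321 and 0.425 CPM, were under the filter of 0.5 CPM, so *Mycn* entered the fit only through proB (1.58 and 1.85 CPM) and preB (2.44 and 1.52 CPM). Its differences from pre-proB, fitted at 4.63-fold for proB and 5.35-fold for preB, are therefore descriptions and are not counted as calls. From proB to preB it did not pass the test (log2 fold change 0.21, 95% interval -0.50 to 0.92, edgeR adjusted p = 0.585), the step at which *Myc* fell. Since *Myc* was so much more abundant, *Mycn* made up 0.814% and 0.914% of their summed FPKM in proB and 9.58% and 5.32% in preB libraries, against 1.35% and 2.51% in pre-proB.

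*Max* (chr12:76937269-76962323), the partner that both the activators and the repressors need, had the least variable level. It was at 102 and 110 CPM in pre-proB, 102 and 98.5 CPM in proB and 98.0 and 94.9 CPM in preB cells. It passed none of these tests, though without the first pre-proB library it did between pre-proB and preB (edgeR adjusted p = 0.0254), and the 95% interval of its log2 change was -0.19 to 0.09 from pre-proB to proB (edgeR adjusted p = 0.494) and -0.19 to 0.10 from proB to preB (edgeR adjusted p = 0.545). Both intervals lie far from the changes of *Myc*.

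The repressors did not move together. *Mxd3* (chr13:55325170-55329900), which unlike its relatives is known from dividing cells in S phase, followed *Myc* upward: it was at 17.6 and 23.5 CPM in pre-proB, 48.8 and 46.0 CPM in proB and 41.6 and 40.7 CPM in preB. It rose 2.35-fold from pre-proB to proB (log2 fold change 1.23, SE 0.121, edgeR adjusted p = 2.19e-05) and, unlike *Myc*, did not pass the test from proB to preB (log2 fold change -0.20, 95% interval -0.46 to 0.07, edgeR adjusted p = 0.170), although without either pre-proB library it did (adjusted p down to 0.0293). Its level in preB stayed 2.05-fold above pre-proB (edgeR adjusted p = 7.84e-05). *Mxd3* overlaps the neighbouring gene *Prelid1* by 103 bp and *Mlx* overlaps *Psmc3ip* by 67 bp, and how reads in such stretches and on either strand were counted was not stated. The values of both are uncertain to that extent.

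*Mxd1* (chr6:86647044-86669234), first described as a gene of differentiating cells, and *Mxd4* (chr5:34176580-34187710) took the opposite course to *Myc*. *Mxd1* was at 37.6 and 38.0 CPM in pre-proB, 21.9 and 26.6 CPM in proB and 35.1 and 33.8 CPM in preB. *Mxd4* was at 65.1 and 54.0 CPM, 36.6 and 32.9 CPM and 67.5 and 63.3 CPM in the same order. In both genes the 2 proB libraries were the lowest of the 6 control libraries. *Mxd1* fell 1.52-fold from pre-proB to proB (log2 fold change -0.61, edgeR adjusted p = 0.000615) and rose 1.43-fold to preB (log2 fold change 0.51, edgeR adjusted p = 0.0026). *Mxd4* fell 1.67-fold (log2 fold change -0.74, edgeR adjusted p = 0.00014) and rose 1.89-fold (log2 fold change 0.92, edgeR adjusted p = 8.83e-05). Neither passed the test between pre-proB and preB (log2 fold changes -0.09 and 0.18).

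*Mxi1* (chr19:53310128-53373293), the Mxd family member also known as Mxd2, climbed at both steps. It was at 35.6 and 34.7 CPM in pre-proB, 42.5 and 42.3 CPM in proB and 64.6 and 67.2 CPM in preB, with no overlap between stages. It rose 1.24-fold from pre-proB to proB (log2 fold change 0.30, SE 0.0654, edgeR adjusted p = 0.0027) and 1.56-fold from proB to preB (log2 fold change 0.64, SE 0.0627, edgeR adjusted p = 5.93e-05). *Mnt* (chr11:74830806-74845725), the broadly expressed repressor, moved little, at 58.7 and 54.8 CPM in pre-proB, 50.2 and 49.7 CPM in proB and 61.3 and 57.4 CPM in preB. Its fall into proB did not pass the test (log2 fold change -0.15, edgeR adjusted p = 0.0699), although it did with DESeq2 size factors, in the fit of all 8 libraries and without the second pre-proB library (adjusted p down to 0.0360), and its rise to preB did (log2 fold change 0.26, edgeR adjusted p = 0.00968). That rise did not pass when either proB library or the first preB library was left out, with adjusted p up to 0.0736.

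*Mlx* (chr11:101086707-101092207) and *Mga* (chr2:119872503-119970129) were lowest in proB as well. *Mlx* was at 54.8 and 58.9 CPM in pre-proB, 41.8 and 38.5 CPM in proB and 47.3 and 54.9 CPM in preB, and the preB and pre-proB libraries met at nearly the same value. It fell 1.38-fold from pre-proB to proB (log2 fold change -0.47, edgeR adjusted p = 0.00148) and rose 1.28-fold to preB (log2 fold change 0.36, edgeR adjusted p = 0.00925), a rise that did not pass without the second proB or the second preB library (adjusted p up to 0.0873). *Mga* was at 161 and 152 CPM, 128 and 130 CPM and 150 and 142 CPM in the 3 stages. It fell 1.18-fold into proB (log2 fold change -0.24, edgeR adjusted p = 0.00598), which did not pass without the first proB library (adjusted p = 0.0591). Its rise of 1.14-fold to preB (log2 fold change 0.18, edgeR adjusted p = 0.0273) did not pass in 8 of 16 alternatives and is the least firm of these calls.

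Leaving *Mycn* aside wherever pre-proB was compared, 7 of 9 members passed the test between pre-proB and proB, 3 higher (*Myc*, *Mxd3* and *Mxi1*) and 4 lower (*Mxd1*, *Mxd4*, *Mlx* and *Mga*), beside 73.0% of the 13650 genes tested (36.2% higher and 36.8% lower). Between proB and preB 7 of 10 passed, *Myc* lower and *Mxd1*, *Mxd4*, *Mxi1*, *Mnt*, *Mlx* and *Mga* higher, beside 58.9% of all genes (29.0% higher and 29.9% lower). Between pre-proB and preB 2 of 9 passed, both higher (*Mxd3* and *Mxi1*), beside 70.7% of all genes (36.5% higher and 34.1% lower). The share of members that changed at the first 2 steps was near that of all genes, and that between pre-proB and preB was under it. These comparisons share libraries, since each stage enters 2 of them.

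**Figure D2:**
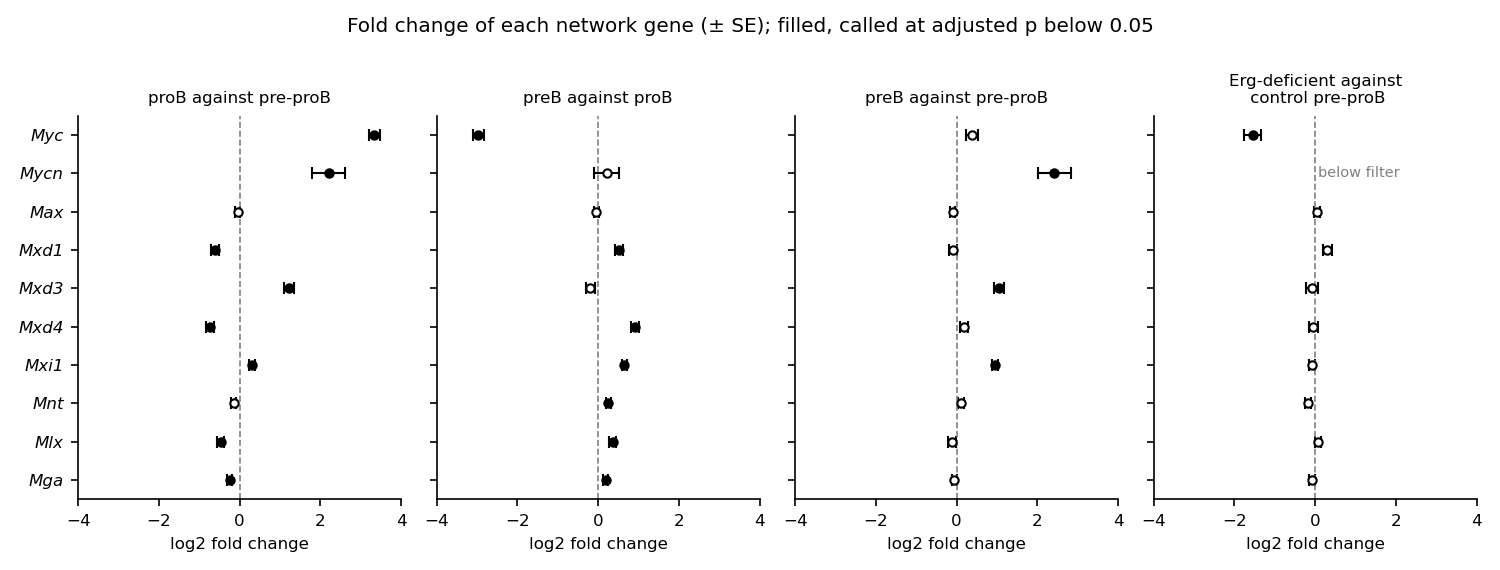
Log2 fold change (horizontal axis) of each network gene in the 4 comparisons, with bars of 1 SE; filled points passed the edgeR test at an adjusted p below 0.05 and open points did not. *Mycn* against pre-proB is drawn as fitted, although its pre-proB libraries were under the filter. *Myc* moved by 3.34 and -2.97 at the 2 stage steps and by -1.55 with Erg deficiency, while *Max* stayed close to 0 in every panel.

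The balance between the classes was set out as the summed FPKM of *Mxd1*, *Mxd3*, *Mxd4*, *Mxi1* and *Mnt* over the summed FPKM of *Myc* and *Mycn*, as a description with no test. The ratio was 6.61 and 9.43 in control pre-proB libraries and fell under 1 in both proB libraries, to 0.983 and 0.913. In preB libraries it was 8.72 and 7.54, and Erg-deficient pre-proB libraries had the highest ratios, 20.8 and 21.1. This ratio covers *Myc* and *Mycn* only. With *Mycl*, a further activator, added to them, the ratio was 8.16 and 7.20 in preB but under 1 elsewhere. It was then 0.881 and 0.904 in the control pre-proB libraries, 0.904 and 0.838 in the Erg-deficient ones and 0.972 and 0.900 in the proB libraries. Transcripts of the 5 repressors were thus in clear excess over those of *Myc*, *Mycn* and *Mycl* in preB, and in pre-proB only over those of *Myc* and *Mycn*. The summed repressors themselves were at 56.3 and 56.9 FPKM in pre-proB, 68.2 and 66.0 FPKM in proB, 79.3 and 76.8 FPKM in preB and 57.8 and 54.1 FPKM in Erg-deficient libraries, so that most of the difference in the ratio without *Mycl* came from the denominator.

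**Figure D3:**
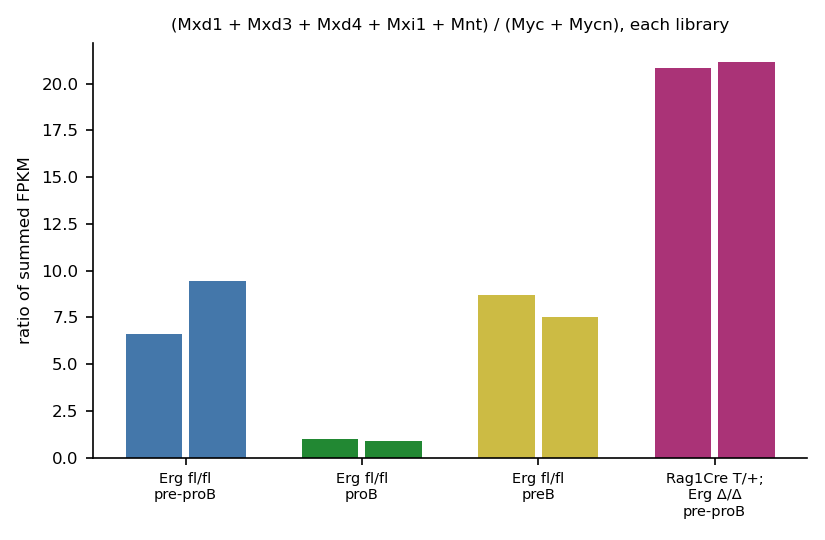
Ratio of the summed FPKM of 5 repressor genes to the summed FPKM of *Myc* and *Mycn* (vertical axis, from 0), with 1 bar for each library and colours for the 4 populations. *Mycl* is left out; the proB bars are just under 1 and the Erg-deficient pre-proB bars just over 20.

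A further member of the Myc family, *Mycl*, had another course and was the dominant one in the pre-proB gate. It was at 202 and 208 CPM in control pre-proB, 3.06 and 3.91 CPM in proB, 2.27 and 1.75 CPM in preB and 224 and 227 CPM in Erg-deficient pre-proB libraries. Per length this is 56.2 ± 1.13 FPKM in control pre-proB cells, where *Myc* was at 7.14 ± 1.77 FPKM. It fell 57.3-fold from pre-proB to proB (log2 fold change -5.84, SE 0.108, edgeR adjusted p = 4.28e-09). *Mycl* is known from dendritic cells, and its levels moved with the plasmacytoid dendritic cell genes given above, whose part in the result was not tested. In the same gate 8 T-cell genes summed to 692 and 845 CPM in control and 1539 and 844 CPM in Erg-deficient pre-proB libraries, against 8.60 to 43.0 CPM in proB and preB. Most of this sum was *Cd4*, at 474 and 614 CPM in control and 1214 and 623 CPM in Erg-deficient libraries. *Cd8a* (112 and 121 CPM) and *Cd8b1* (66.5 and 68.3 CPM) came next in control. From pre-proB to proB 7 of the 8 were called lower, and *Lat* higher (log2 fold change 0.59, edgeR adjusted p = 0.00372). Whether the sum stands for T cells was not tested. In the pre-proB gate 8 NK-cell genes summed to 42.7 and 50.6 CPM in control and 119 and 194 CPM in Erg-deficient libraries. Every one of the 8 plasmacytoid dendritic cell genes and of the 8 T-cell genes had counts in every library. Over all 8 libraries, summed markers of myeloid cells lay between 60.2 and 369 CPM, those of erythroid cells between 5.17 and 23.3 CPM and those of plasma cells between 306 and 1010 CPM. Of 14 B-lineage markers, 11 rose and 3 fell from pre-proB to proB, and 5 rose and 4 fell from proB to preB, beside 36.2% higher and 36.8% lower and 29.0% higher and 29.9% lower among all genes.

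**Figure D4:**
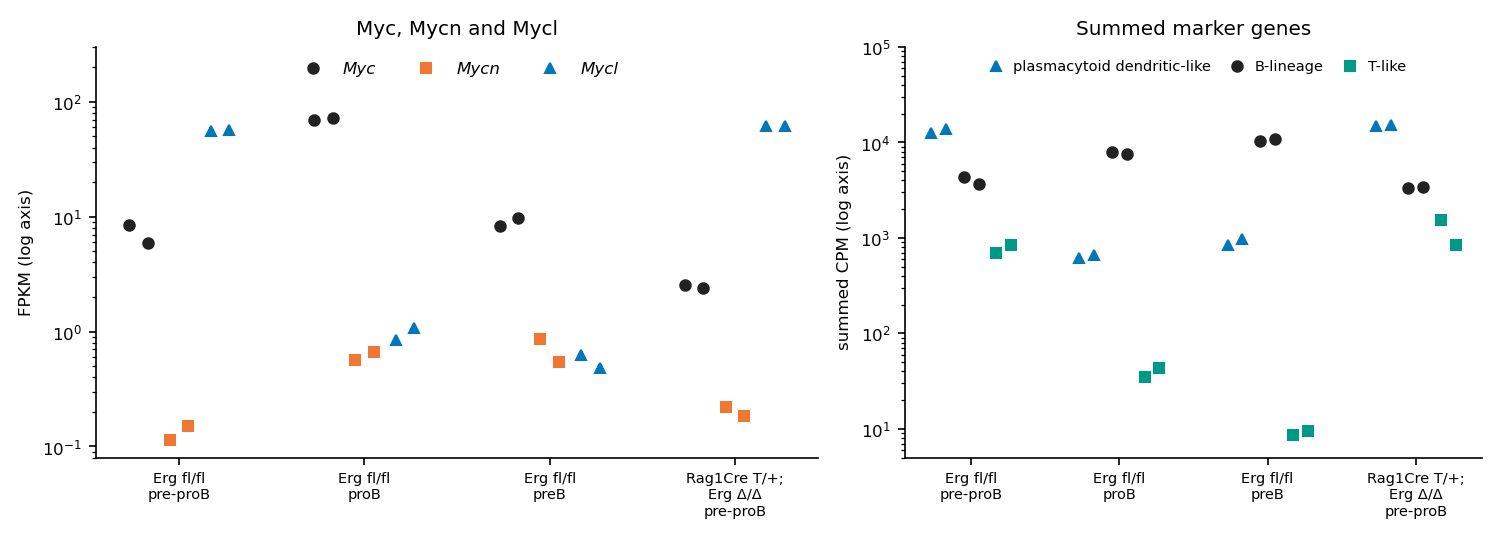
Left, FPKM of *Myc*, *Mycn* and *Mycl* in each library on a log axis; right, CPM summed over marker genes of plasmacytoid dendritic-like, B-lineage and T-like cells in the same libraries, also on a log axis. *Mycl* lay above *Myc* in both kinds of pre-proB cells and below it in proB and preB, and the plasmacytoid dendritic-like sum stepped down between the same populations, from at least 12665 to at most 976 CPM.

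Among the other genes close to the network, *Mlxip*, a partner of Mlx that senses glucose metabolites, rose at both steps, from 233 and 197 CPM in pre-proB to 292 and 270 CPM in proB and 630 and 532 CPM in preB (log2 fold changes 0.42 and 1.06, edgeR adjusted p = 0.00644 and 6.42e-05). *Zbtb17*, which encodes the Myc partner Miz1, rose at the preB step (log2 fold change 0.47, edgeR adjusted p = 0.000229). *Tfap4*, itself listed among Myc's targets, rose into proB (log2 fold change 0.35, edgeR adjusted p = 0.0039) and fell into preB (log2 fold change -0.94, edgeR adjusted p = 3.66e-05). *Mlxipl* stayed below the filter.

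The coactivators of Myc changed in part. All genes together, against which the counts of these short lists are to be read, were 36.2% higher and 36.8% lower into proB, 29.0% higher and 29.9% lower into preB, and 36.5% higher and 34.1% lower between pre-proB and preB. Of 8 coactivator genes, 5 rose from pre-proB to proB and none fell, and 4 fell and 2 rose from proB to preB. These counts depend on the processing: 4 rose into proB with DESeq2 and 6 with total counts, and 1 rose into preB with DESeq2. The lowest p into proB belonged to *Ruvbl2* and *Ruvbl1*, ATPases of chromatin remodelling complexes. *Ruvbl2* went from 48.6 and 47.0 CPM to 116 and 125 CPM and then 77.1 and 77.3 CPM (log2 fold changes 1.37 and -0.64, edgeR adjusted p = 2.21e-07 and 5.43e-05). *Ruvbl1* rose by 1.18 and fell by 0.90 on the log2 scale (edgeR adjusted p = 8.04e-07 and 1.57e-05), and *Kat2a*, the acetyltransferase Gcn5, fell by 0.98 into preB (edgeR adjusted p = 2.37e-05). Of 6 corepressor genes, 3 rose into proB (*Hdac2*, *Sin3a* and *Hdac1*, log2 fold changes 0.93, 0.54 and 0.49) and 1 fell (*Sin3b*, -0.21), so the scaffold genes *Sin3a* and *Sin3b* parted. Of 7 genes that act on the stability of Myc protein, 3 rose into proB and 1 fell. *Skp2*, a ubiquitin ligase subunit (log2 fold change 1.77), and *Aurka*, a mitotic kinase that stabilizes Mycn (1.94), were among the higher ones, and *Fbxw7*, the ligase subunit that marks Myc for degradation, was lower (-0.29, edgeR adjusted p = 0.0065). *Fbxw7* then rose into preB (log2 fold change 0.28, edgeR adjusted p = 0.0096), a call lost without the second proB or the second preB library (adjusted p up to 0.0984), where *Skp2* and *Aurka* fell (-0.79 and -0.61). Between pre-proB and preB, 5 coactivators, 3 corepressors and 4 turnover genes were higher, and 1 coactivator (*Kat2a*, not called without the first preB library, adjusted p = 0.106), 1 corepressor and no turnover gene were lower. RNA levels say nothing of Myc protein, which was not measured in these libraries.

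The genes commonly listed as activated by Myc followed its course between stages. Of 30 such targets, 29 rose from pre-proB to proB and 1 fell, with a median log2 fold change of 1.28 against 0.00 over all genes, where 36.2% of genes were higher. From proB to preB 29 fell and 1 rose, with a median of -1.27 against 0.00. These counts were the same under every alternative. The targets with the lowest p were *Ccnd2*, which encodes cyclin D2 (74.7 and 72.9 CPM in pre-proB, 261 and 264 CPM in proB and 66.8 and 70.0 CPM in preB, log2 fold changes 1.86 and -1.93), and *Cad*, the enzyme of the first steps of pyrimidine synthesis (57.2 and 50.7 CPM, 190 and 200 CPM, 74.7 and 72.6 CPM, log2 fold changes 1.89 and -1.40). *Hspd1*, a mitochondrial chaperone, rose by 2.01 on the log2 scale into proB, and *Gnl3*, the nucleolar protein nucleostemin, fell by 1.58 into preB. The exception was *Tfrc*, the transferrin receptor, which fell from 1301 and 1368 CPM to 439 and 422 CPM into proB and rose into preB (log2 fold changes -1.60 and 0.53, edgeR adjusted p = 6.01e-07 and 0.000961). *Cdk4* and *Ldha*, whose promoter stretches with several E-boxes are shown above and which were picked for those letters after their values were known, were among the 29: *Cdk4* changed by 1.21 and -0.94 and *Ldha* by 1.36 and -1.62 on the log2 scale (edgeR adjusted p = 1.47e-05 or lower for each).

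Between pre-proB and preB, where *Myc* itself did not pass the test, 11 of the 30 targets were higher and 9 lower, beside 36.5% and 34.1% of all genes, with a median log2 fold change of 0.09 against 0.04 over all genes. These counts depend on the processing: 9 were higher and 9 lower with no filter, and 12 higher and 8 lower with total counts. They also changed when 1 library was left out. *Ppan*, a ribosome assembly factor, was the higher one with the lowest p (0.88) and *Slc7a5*, an amino acid transporter, the lower one (-1.26). Markers of dividing cells did not return in the same way. All 12 proliferation genes rose into proB (median log2 fold change 2.10) and all 12 fell into preB (median -0.67), and all 12 were still higher in preB than in pre-proB (median 1.43), as was the case for *Rrm2*, a subunit of ribonucleotide reductase, at 91.5 and 92.4 CPM in pre-proB, 574 and 548 CPM in proB and 466 and 408 CPM in preB. The targets and the proliferation genes moved with *Myc*, and the part of cell division and of the change in cell types in the gate was not tested.

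**Figure D5:**
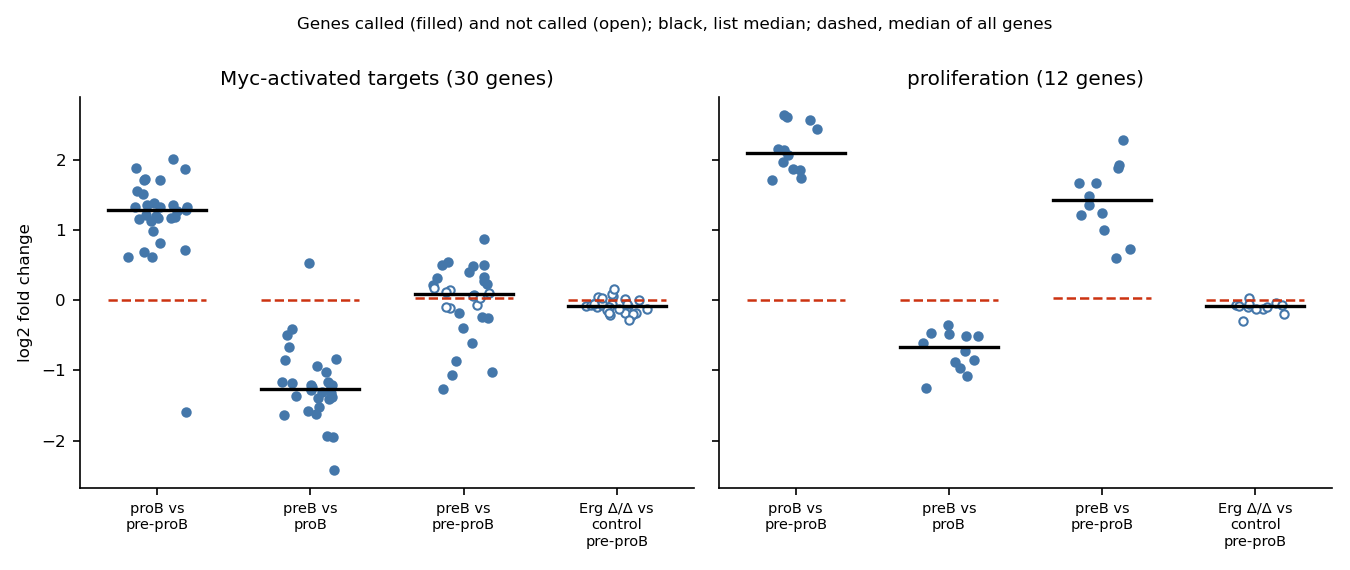
Log2 fold change (vertical axis) of 30 Myc-activated targets (left) and 12 proliferation genes (right) in the 4 comparisons; filled points passed the edgeR test, open points did not, black lines are list medians and dashed lines are medians of all genes tested. The targets lie near 1.28 and -1.27 at the 2 stage steps and close to 0 with Erg deficiency, where no gene of either list passed.

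Of 5 genes listed as repressed by Myc, 4 passed the filter, and they did not share a direction. *Cdkn1a*, the cell-cycle inhibitor p21, rose with *Myc* from 8.15 and 6.93 CPM in pre-proB to 35.8 and 44.2 CPM in proB and fell to 18.8 and 18.3 CPM in preB (log2 fold changes 2.44 and -1.10, edgeR adjusted p = 6.53e-07 and 0.000117). *Cdkn1b*, the inhibitor p27, did not pass into proB (log2 fold change 0.10) and rose into preB, from 125 and 116 CPM to 234 and 243 CPM (log2 fold change 1.00, edgeR adjusted p = 1.66e-05). *Gadd45a* rose at both steps (0.53 and 1.15), and *Ndrg1* fell into proB (-1.02). Between pre-proB and preB 3 of the 4 were higher and *Ndrg1* was lower.

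With Erg deficiency 1 member passed the test. *Myc* was at 20.5 and 14.4 CPM in control pre-proB cells and at 6.25 and 5.81 CPM in Erg-deficient ones (320 and 237 counts against 100 and 90), with no overlap, so that the Erg-deficient mean was 34.5% of the control mean. It fell 2.92-fold (log2 fold change -1.55, SE 0.208, 95% interval -2.04 to -1.05, edgeR adjusted p = 0.0293). Of the 9 members tested it was the only one that passed, beside 1.16% of the 13005 genes tested (0.215% higher and 0.946% lower); *Myc* and *Mxd1* had an unadjusted p under 0.05, beside 12.5% of all genes. The fold change lay between -1.80 and -1.26 under all 14 alternatives, but the call was lost with limma-voom (limma adjusted p = 0.0905) and without the first or the second Erg-deficient library (edgeR adjusted p = 0.189 and 0.186), where the remaining library has no replicate. Without the first control library, which had more *Erg* and *Pax5*, the log2 fold change was -1.26 (edgeR adjusted p = 0.0249).

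The other members showed no detectable change at this depth and number of libraries. *Max* was at 115 and 106 CPM in Erg-deficient against 102 and 110 CPM in control pre-proB (log2 fold change 0.05, 95% interval -0.12 to 0.22, edgeR adjusted p = 0.827). *Mxd1* had the second largest difference, 52.8 and 41.2 CPM against 37.6 and 38.0 CPM, with no overlap and without passing the test (log2 fold change 0.30, 95% interval 0.02 to 0.58, edgeR adjusted p = 0.364). *Mxd3*, *Mxd4*, *Mxi1*, *Mnt*, *Mlx* and *Mga* differed by -0.18 to 0.07 on the log2 scale, and their 95% intervals together ran from -0.42 to 0.26. *Mycn*, with 10 and 8 counts against 5 and 7, was below the filter and was not tested. *Mycl*, the most abundant Myc-type transcript of these cells, did not differ detectably either (224 and 227 against 202 and 208 CPM).

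Genes downstream of Myc were not called in Erg-deficient pre-proB cells. None of the 30 targets passed the edgeR test, and 3 had an unadjusted p under 0.05, beside 12.5% of all genes. That number was 1 to 5 when 1 library was left out (1 without the first control or the second Erg-deficient library, 5 without the second control library) and 8 with total counts. The log2 fold change was negative for 24 targets and positive for 6, and their median log2 fold change was -0.07 against 0.01 over all genes, with a range from -0.28 to 0.16. DESeq2 and limma-voom called none either. The lowest p was that of *Ppan* (30.2 and 30.6 against 36.6 and 36.5 CPM, log2 fold change -0.28, edgeR adjusted p = 0.147). None of the 12 proliferation genes passed, with 2 at an unadjusted p under 0.05, and their summed level was 1818 and 1832 CPM against 1848 and 2031 CPM. The same held for the coactivator, corepressor, turnover and Myc-repressed genes, of which none passed.

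In contrast, part of the B-lineage genes moved with *Myc* between the genotypes. Of 14 B-lineage markers 7 were called lower as fitted, *Pax5* among them, and none higher, beside 0.946% and 0.215% of all genes. The other 7 were not called. By log2 fold change 9 of the 14 were negative and 5 positive, the highest at 0.16. *Pax5*, 1 of those called lower, was at 26.8 and 7.78 CPM in control and 0.437 and 0.0646 CPM in Erg-deficient libraries. It entered the fit only through the controls, so that its values and its call are a description. The count of 7 is therefore to be read without *Pax5*. The calls of *Igll1*, part of the surrogate light chain, and *Rag1*, the recombinase, were lost with limma-voom and without either Erg-deficient library. Of the 8 NK-cell genes 4 were called higher and none lower, beside 0.215% and 0.946% of all genes, and all 8 had a positive log2 fold change. The calls of *Ncr1*, *Prf1* and *Klrk1* were lost with limma-voom. Those of *Prf1* and *Klrk1* were also lost without either Erg-deficient library, and that of *Ncr1* without the second. No plasmacytoid dendritic, T-cell or erythroid gene was called. Of 8 myeloid genes 1 was called lower, *S100a9* (5.06 and 5.62 against 35.5 and 17.1 CPM in control), and all 8 had a negative log2 fold change. That call was lost with total counts, with limma-voom and in the fit of all 8 libraries. Of 7 plasma cell genes tested, *Ighg3* and *Ighg2c* were called lower. Both entered the fit only through the controls, so that these calls are a description. The summed markers of plasmacytoid dendritic, T and NK cells in these libraries are given above, and their part and that of the B-lineage genes in the fall of *Myc* was not tested. Cre and the loss of *Erg* cannot be told apart in this comparison, since the control mice carried no Cre.

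Over the 8 libraries, the genes most like *Myc* in pattern were *Sipa1*, *Enpp6* and *Ctdspl* (Pearson r of log2(CPM + 1) of 0.994, 0.994 and 0.993 among 10145 genes compared), and those most like *Mycn* were *ND6*, *Csnk2a2* and *Oxsr1* (0.987, 0.986 and 0.982). Among the members, *Mxd1* and *Mlx* ran most against *Myc* (r = -0.94 for each) and *Mxd3* most with *Mycn* (r = 0.92). These are descriptions: the 8 libraries fall into 4 populations, so each r rests largely on 4 levels.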

How the data were processed

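The authors trimmed paired-end reads with Trim Galore, aligned them to mm10 (GRCm38) with STAR and counted reads per gene with featureCounts; the deposited values are whole-number counts without normalization, and the strand setting is not given in the sources used here. Symbols and coordinates came from RefSeq (GRCm38.p6) for 25275 of 27179 identifiers and symbols from GENCODE for 18 more; the 1886 others, with 0.571% of the counts, stayed in library sizes and tests. Fold changes came from edgeR 4.0.16 (legacy quasi-likelihood F-test, TMM, Benjamini-Hochberg adjustment over all genes tested), fitted to the 6 control libraries for stages and the 4 pre-proB libraries for genotype. A gene entered a fit with 0.5 CPM or more in 2 or more of its libraries, and adjusted p below 0.05 counted as called. The fits were tested on simulated data. Exon lengths for FPKM came from the GENCODE basic annotation. Replicates of a population differed by more than counting noise (chi-square over degrees of freedom 3.82 to 8.29). The p-values measure only spread between replicate libraries, with 2 libraries a group. That spread was pooled over the groups of a fit and moderated toward the spread of other genes.

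The 10 members and all gene lists (targets, coactivators, corepressors, turnover, proliferation, cell type markers) were chosen with earlier results of these data known. Beyond the members, the text names up to 3 called genes with the lowest p of each list in each direction and comparison, or the uncalled gene with the lowest p. Some genes of the lists are not reported here by name. *Sin3b*, *Ndrg1* and *Pax5* are given as list members, and *Cdk4*, *Ldha* and *Hspe1* for their promoter letters. Alternatives were DESeq2 size factors or total counts, no filter or 1 CPM, DESeq2 1.42.0, limma-voom (limma 3.58.1), edgeR's version 4 quasi-likelihood method, all 8 libraries in 1 fit, immunoglobulin genes left out, a replicate block and each library left out. Figures were drawn with matplotlib 3.10.9.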

Additional observations from a re-analysis of the deposited data

How the results depend on the processing

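Counts here include *Mycn* against pre-proB as fitted. Of 606 member results under alternatives, 571 kept their direction and side of the threshold, 17 lost a call, 12 gained one and 6 changed sign, none of them a call. The sign changes were *Max* from pre-proB to proB with total counts (0.0084), and otherwise came from leaving out a library, where log2 fold changes ran from -0.16 to 0.47 for *Mycn* from proB to preB, from -0.25 to 0.0020 for *Mlx* between pre-proB and preB, and, between genotypes, from -0.015 to 0.11 for *Max*, from -0.26 to 0.12 for *Mxd3* and from -0.19 to 0.11 for *Mxd4*. Without 1 library, members called numbered 4 to 8 from proB to preB (4, *Mxd1*, *Mxd4*, *Mxi1* and *Myc*, without the second proB library), 3 to 6 between pre-proB and preB (6, with *Max*, *Mxd4* and *Myc* added, without the first pre-proB library) and 0 to 1 between genotypes (0 without either Erg-deficient library). Over all genes the genotype comparison called 151 genes, 279 with no filter, 400 with DESeq2, 41 with limma-voom (and 0 members), 88 with edgeR's version 4 method, 442 in the fit of all 8 libraries, and 10 to 401 without 1 library (10 without the second Erg-deficient library, 401 without the second control library). A library whose partner was left out was assumed to vary as the other groups do, and the cause was not tested.

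With the replicate number as a block, 265 genes and 1 member were called between genotypes, and *Mxd4* joined the members called between pre-proB and preB (4 members in place of 3). Deviations of same-numbered libraries correlated at -0.01 for the pre-proB genotypes and 0.04 to 0.19 between control stages. The 6 control libraries came from 2 mice, so some share a mouse, but the labels do not say which, and whether the numbers pair them was not settled. With *Mycl* added, an alternative chosen after seeing the data, the ratio of repressors to activators in pre-proB fell under 1, as given above.

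With 15565381 to 18457632 counts a library and 2 libraries a group, changes under the widths of the intervals given, and changes of *Mycn* between genotypes, cannot be resolved.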
